A study of Mus musculus with 12 samples.

Results

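The genes examined were 10 parts of the transforming growth factor beta (TGF-beta) pathway: the ligand Tgfb1, the receptors Tgfbr1 and Tgfbr2, the signal carriers Smad2, Smad3 and Smad4, the inhibitory Smad7, and the corepressors Ski, Skil and Tgif1. Every non-control probe that carried any of these names was taken, which gave 17 of the 55681 probes on the array. Of these, 16 probes, covering all 10 genes, were bright enough to test. The remaining probe, directed at a short Tgfbr1 transcript, was well above background on 4 of 12 arrays, never on all 3 of a group, and was not tested. Where a gene had several tested probes, its brightest stood for it.

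The study measured regulatory T (Treg) cells, the CD4+ T cells that express the transcription factor Foxp3 and restrain immune responses, sorted from spleens of female C57BL/6 mice. The 4 groups of 3 Agilent arrays of a single colour were KO cells (genotype CD83cKO) after 3 h of activation with anti-CD3 and anti-CD28, WT cells (genotype CD83 WT) after 3 h, non-activated KO cells (0 h) and non-activated WT cells (0 h). KO mice were 10 weeks old, except that 1 KO array at each time came from a 21-week mouse, and WT mice were 9 weeks old. The design text counts 6 mice for the 12 arrays and the labels do not say which arrays share a mouse, so p-values measure the spread between arrays. Which cells delete the cKO allele is unknown here, since no label gives its Cre line.

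TGF-beta is secreted in a latent form, and once released it binds the receptor encoded by Tgfbr2, which activates its partner encoded by Tgfbr1. That receptor phosphorylates SMAD2 and SMAD3, which enter the nucleus with SMAD4 and act on target genes. Smad7 blocks the receptor, and SKI, SKIL and TGIF1 hold SMAD complexes in a repressing state. In Treg cells the pathway is known for helping to induce and keep Foxp3, and Treg cells themselves make TGF-beta.

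Slide 1 held every KO array, 6 in all, slide 3 the WT arrays at 3 h and slide 2 those at 0 h. Genotype and slide therefore cannot be told apart, nor can time and slide in WT cells, and the change over 3 h in KO cells is the only comparison within a slide. Levels are log2 intensities minus each array's 75th percentile, which was 164.6 to 324 intensity units, and 42.9 to 54.6% of probes were well above background. Cd83 itself, the targeted gene, stood at 1.06, 1.07 and 1.92 in KO cells at 3 h, against 4.21, 3.69 and 3.65 in WT cells. At 0 h it stood at 0.75, 0.29 and 0.23 in KO cells and 2.36, 2.17 and 2.39 in WT cells. The KO arrays were below every WT array at both times, with a difference of -2.50 ± 0.267 (log2, SE) at 3 h (adjusted p = 0.00247) and -1.88 ± 0.267 at 0 h (adjusted p = 0.00925) in limma. Whether that probe lies inside the deleted part is not stated in any label or header. All 10 T cell markers were well above background on every array. The Foxp3 probe was well above background on every KO array but on no WT array, although Foxp3 defines the cell type, and was at least 8.92-fold higher in KO cells at 3 h (adjusted p = 0.0198) and at least 4.83-fold at 0 h (adjusted p = 0.0526). The other 3 Treg markers were well above background on all 12 arrays. Their differences, KO minus WT, were -0.89 at 3 h and -2.07 at 0 h for Il2ra, -1.46 and -1.53 for Ikzf2, and -1.03 and -1.31 for Ctla4, and none of these passed. Without the arrays of the 21-week mice, the difference of Ctla4 at 0 h was -0.60 and passed (adjusted p = 0.0353), and the other differences of these 3 did not pass.

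The arrays also differed in markers of other cells, on the scale of mean log2 level minus the WT mean at 0 h. The 10 monocyte and macrophage markers lay between -0.58 and 0.76 in KO cells at 3 h, against -2.21 to -1.90 in WT cells, and between 2.10 and 2.56 in KO cells at 0 h, against -0.32 to 0.42 in WT cells. At 0 h the 5 tested dendritic cell markers lay between 1.42 and 2.69 in KO cells, against -0.29 to 0.23 in WT cells. At 3 h they lay between 0.54 and 1.94 in KO cells, against -0.35 to 0.01 in WT cells. The 6 tested erythroid markers lay between 2.54 and 3.41 in KO cells at 0 h, against -1.35 to 1.13 in WT cells, and overlapped at 3 h. The 4 plasma cell markers averaged -0.21 and 2.24 on the 10-week KO arrays at 3 h, and 2.37 and 2.61 at 0 h. On the arrays of the 21-week KO mice they reached 7.66 at 3 h and 7.17 at 0 h, against at most 0.50 in WT cells. On these 2 arrays the 10 T cell markers averaged -2.70 and -1.87, against -0.71 to -0.58 in WT cells at 3 h and -0.06 to 0.06 at 0 h. The 2 tested neutrophil markers averaged 5.60 at 3 h and 7.26 at 0 h there, against at most 0.88 in WT cells. On the 10-week KO arrays the T cell markers averaged -0.375 and -0.295 at 0 h, below every WT array, and -0.585 and -0.699 at 3 h. In such sorted bulk samples fewer cells of a type and less RNA per cell cannot be told apart. The part of these markers in the results below was not tested.

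**Figure D1:**
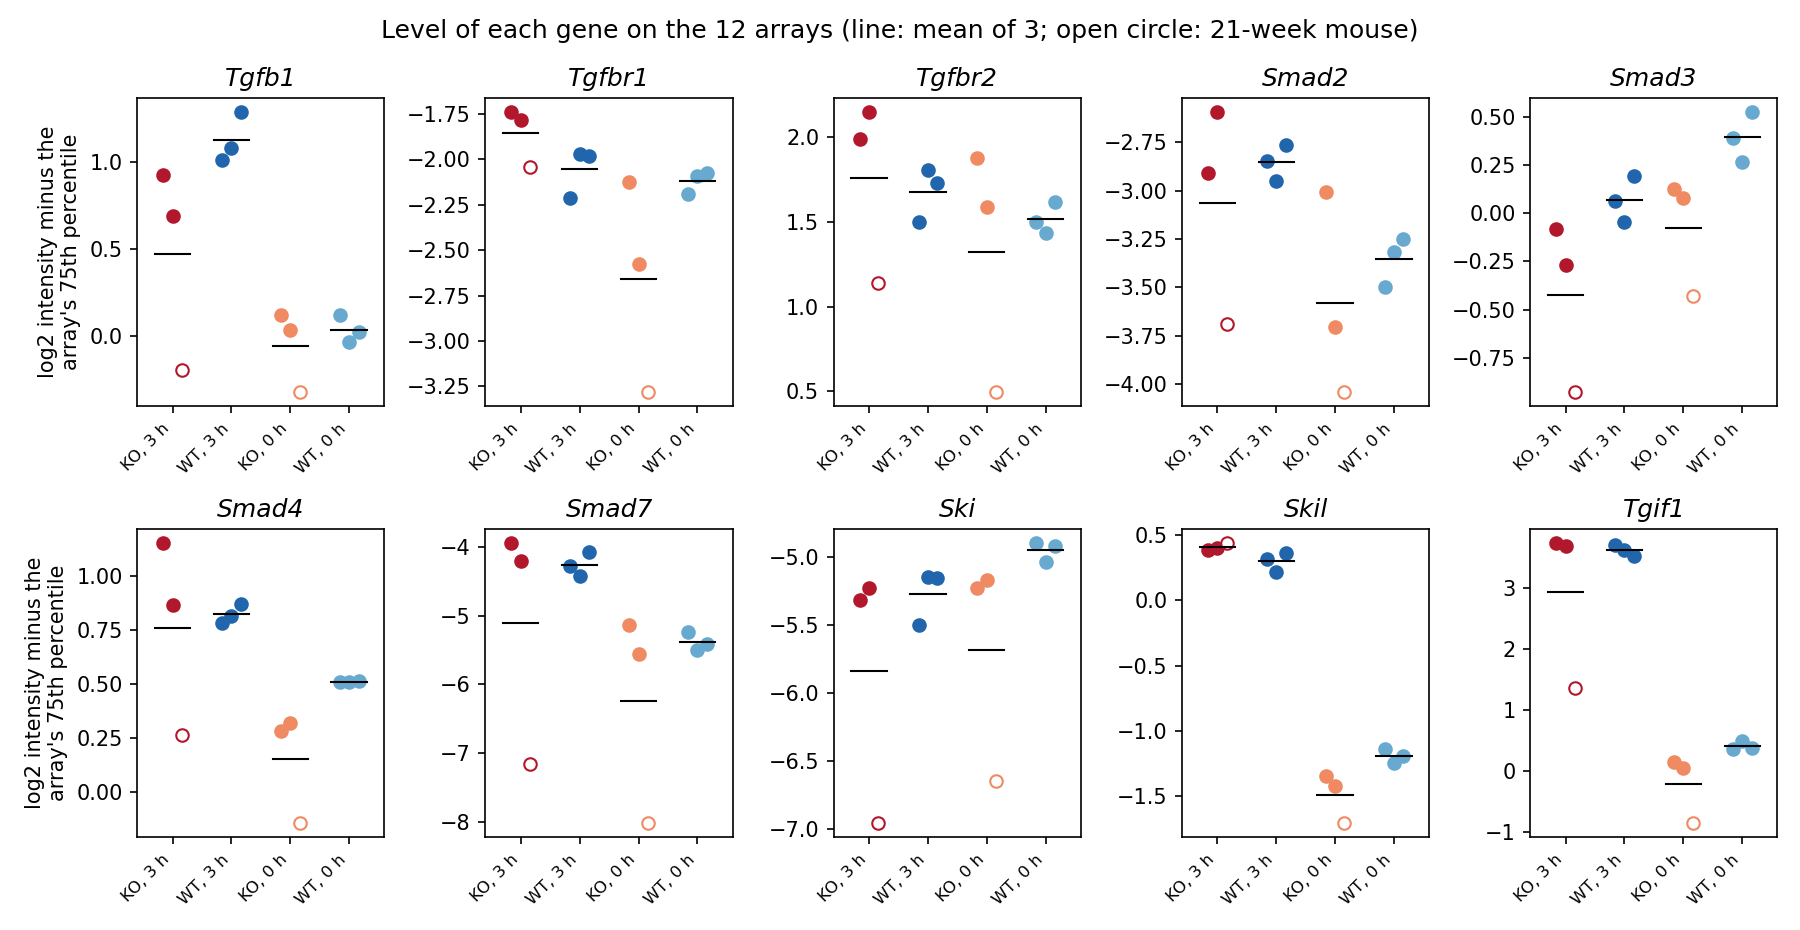
Level of each of the 10 genes (brightest probe) on the 12 arrays, in log2 intensity minus the array's 75th percentile, with a panel and its own axis per gene. Dots are arrays, lines are means of 3, and open circles are the arrays of the 21-week KO mice, which lie lowest of the 3 KO arrays in every panel at 0 h and in every panel but Skil at 3 h.

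After 3 h of activation, 2 of the 3 corepressors, Tgif1 and Skil, rose in KO cells and in WT cells, and the ligand Tgfb1 rose in WT cells. No gene of the 10 fell, where 9.55% of all genes fell in KO cells and 16.4% in WT cells. In limma with Benjamini-Hochberg adjustment over all 26259 tested probes, 2 of 10 genes changed in KO cells, where 16.6% of the 18544 genes tested were called and 7.1% were called as rising. In WT cells 3 of 10 changed, where 29.4% of genes were called and 13.1% were called as rising. The median change of the 10 genes was 0.57 (log2, 3 h minus 0 h) in KO cells, where that of all genes was -0.04, and 0.41 in WT cells, where that of all genes was -0.14. The 3 h arrays lay wholly above the 0 h arrays, or wholly below them, for 3 of the 10 genes in KO cells (24.4% of all genes) and for 8 in WT cells (68.5% of all genes).

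Tgfb1 encodes TGF-beta1, the main TGF-beta of immune cells. Its probe (chr7:26489877-26489936, plus strand, mm9), spotted 10 times per array, stood at 0.92, 0.69 and -0.20 in KO cells at 3 h, against 1.01, 1.08 and 1.29 in WT cells. At 0 h it stood at 0.12, 0.04 and -0.32 in KO cells and at 0.12, -0.04 and 0.02 in WT cells. At 3 h every KO array lay below every WT array, while at 0 h the groups overlapped. In WT cells the level was 1.09 ± 0.266 (log2, SE) higher at 3 h than at 0 h, a 2.13-fold change (adjusted p = 0.0127 in limma). This call was lost without WT replicate 3 at 3 h (adjusted p = 0.051) and with no shift between arrays (adjusted p = 0.109). In KO cells the difference was 0.53 ± 0.266 (adjusted p = 0.201), and the 3 h and 0 h arrays overlapped through the 21-week array. Without the 21-week arrays it was 0.73 ± 0.137 (adjusted p = 0.00362). The KO change minus the WT change was -0.56, with a 95% interval of -1.40 to 0.27 (adjusted p = 1), so a smaller rise in KO cells was not shown.

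The promoter window of Tgfb1 is printed because its gene rose and it held an EGR motif, alone among the members' windows scanned. EGR factors are zinc finger proteins induced by T cell receptor signals. The window of 300 bases lies mostly upstream of the transcription start in RefSeq's GRCm38.p6 annotation (chr7:25686752-25687051, plus strand), with the match to GCGTGGGCG, which lies on the minus strand, in capitals.
Tgfb1 promoter: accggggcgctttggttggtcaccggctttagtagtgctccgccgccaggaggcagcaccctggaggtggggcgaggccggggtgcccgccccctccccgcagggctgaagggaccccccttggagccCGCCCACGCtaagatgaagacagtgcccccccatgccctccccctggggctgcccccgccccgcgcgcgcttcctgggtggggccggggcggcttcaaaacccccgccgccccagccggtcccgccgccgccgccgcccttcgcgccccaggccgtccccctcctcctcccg
Of all 32851 promoter windows of this length, 0.612% held GCGTGGGCG on either strand. The motif is nearly all G and C, and this window was 77% G and C, against a median of 52.7% over all windows. The part of base composition in the match was not tested. Windows were scanned for Ski, Smad3, Tgfb1, Tgfbr1, Tgfbr2 and Tgif1, which is 6 of the 10 genes, 11 windows in all. The other members had no window scanned, so the motif counts do not speak for them.

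Tgfbr2 encodes the ligand-binding receptor. Its brighter probe (chr9:115997155-115997214, minus strand, mm9) stood at 1.99, 2.15 and 1.14 in KO cells at 3 h, against 1.50, 1.81 and 1.73 in WT cells. At 0 h the values were 1.88, 1.59 and 0.49 in KO cells and 1.50, 1.43 and 1.62 in WT cells. KO and WT arrays overlapped at both times, and so did the times in each genotype. The change over 3 h was 0.44 ± 0.358 in KO cells (adjusted p = 0.435) and 0.16 ± 0.358 in WT cells. The dimmer probe, which lies 2341 bases nearer the start of the same transcript (chr9:115999496-115999555), stood at -1.93, -1.44 and -2.52 in KO cells at 3 h, against -2.70, -2.78 and -3.33 at 0 h. All 3 h arrays were above all 0 h arrays, and the probe was higher by 0.98 ± 0.271 at 3 h in KO cells (adjusted p = 0.0358). In WT cells that probe differed by 0.65 ± 0.271, which missed the threshold in limma.

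Tgfbr1 encodes the kinase that passes the signal to the SMADs. At its brightest probe (chr4:47427736-47427795, plus strand, mm9) the levels were -1.74, -1.78 and -2.04 in KO cells at 3 h, against -2.21, -1.97 and -1.98 in WT cells. At 0 h they were -2.13, -2.58 and -3.28 in KO cells and -2.19, -2.09 and -2.08 in WT cells. The KO arrays at 3 h were all above the KO arrays at 0 h, whereas KO and WT arrays overlapped at each time. The change was 0.81 ± 0.255 in KO cells (adjusted p = 0.057) and 0.07 ± 0.255 in WT cells. The KO difference passed under 7 of the 13 alternative settings run besides leaving out single arrays, with adjusted p from 0.00572 to 0.528. The lowest came from a fit with a term for age, a setting chosen after seeing the data. The 13 include the KO slide fitted alone and only the arrays compared, which are the same fit. The probe 2790 bases nearer the start of that transcript (chr4:47424946-47425005) rose by 1.13 ± 0.211 in KO cells (adjusted p = 0.00712). There it stood at -4.38, -4.21 and -4.16 at 3 h, with no overlap with -5.34, -4.98 and -5.83 at 0 h. In WT cells it differed by 0.26 ± 0.211. The KO change minus the WT change was 0.87 at this probe, with a 95% interval of 0.21 to 1.53 before adjustment. At the brightest probe it was 0.74, with an interval of -0.06 to 1.54. Neither passed (adjusted p = 1 at both probes). At the level of probes, 5 of the 16 rose in KO cells, where 7.43% of all tested probes rose, and 4 of 16 rose in WT cells, where 13.7% did.

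Smad2 and Smad3 encode the SMADs that the receptor phosphorylates. Smad2 (chr18:76464903-76464962, plus strand, mm9) stood at -2.91, -2.59 and -3.69 in KO cells at 3 h, against -2.85, -2.95 and -2.77 in WT cells, and at -3.01, -3.70 and -4.04 in KO cells at 0 h, against -3.50, -3.32 and -3.25 in WT cells. In WT cells all 3 h arrays were above all 0 h arrays, and in KO cells the times overlapped. Neither difference passed, at 0.52 ± 0.310 in KO cells and 0.50 ± 0.310 in WT cells. Smad3 (chr9:63494574-63494633, minus strand) ran the other way. Its brightest probe stood at -0.08, -0.27 and -0.93 in KO cells at 3 h, against 0.06, -0.04 and 0.19 in WT cells, and at 0.12, 0.08 and -0.43 in KO cells at 0 h, against 0.39, 0.27 and 0.52 in WT cells. Every KO array lay below every WT array at both times, and in WT cells every 3 h array lay below every 0 h array. The change over 3 h was -0.35 ± 0.238 in KO cells and -0.32 ± 0.238 in WT cells, with neither past the threshold. The dimmer Smad3 probe, well above background on 10 of 12 arrays, changed by 0.02 and -0.06.

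Smad4 encodes the partner that the phosphorylated SMADs share. It stood at 1.15, 0.87 and 0.26 in KO cells at 3 h, against 0.78, 0.82 and 0.87 in WT cells (chr18:73798670-73798729, minus strand, mm9). At 0 h it stood at 0.28, 0.32 and -0.15 in KO cells and at 0.51, 0.51 and 0.51 in WT cells. The WT arrays separated by time, and the KO array of the 21-week mouse at 3 h fell within the range of the KO arrays at 0 h. The change was 0.61 ± 0.225 in KO cells and 0.31 ± 0.225 in WT cells, and neither passed. The dimmer Smad4 probe, 998 bases away, gave 0.61 and 0.66.

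Smad7 encodes the SMAD that blocks the receptor and is itself induced by TGF-beta. It stood at -3.94, -4.20 and -7.15 in KO cells at 3 h, against -4.28, -4.42 and -4.07 in WT cells (chr18:75555371-75555430, plus strand, mm9). At 0 h it stood at -5.14, -5.56 and -8.02 in KO cells and at -5.24, -5.49 and -5.41 in WT cells. On the arrays of the 21-week mice it was not well above background, so 2 of 3 KO arrays measured it at each time. In WT cells all 3 h arrays were above all 0 h arrays. The change was 1.14 ± 0.871 in KO cells and 1.12 ± 0.871 in WT cells, and neither passed with the shared spread of the 12 arrays. Without the 2 arrays of the 21-week mice it was 1.28 ± 0.188 in KO cells (adjusted p = 0.00111) and 1.12 ± 0.153 in WT cells (adjusted p = 0.000464).

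Ski encodes a corepressor that binds SMAD complexes. It stood at -5.32, -5.23 and -6.96 in KO cells at 3 h, against -5.50, -5.15 and -5.16 in WT cells (chr4:154528238-154528297, minus strand, mm9). At 0 h it stood at -5.23, -5.17 and -6.65 in KO cells and at -4.90, -5.04 and -4.92 in WT cells. It too was not well above background on the arrays of the 21-week mice. The KO arrays lay below the WT arrays at 0 h and overlapped them at 3 h. Over 3 h it changed by -0.15 ± 0.486 in KO cells and by -0.32 ± 0.486 in WT cells, with neither past the threshold.

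Skil encodes SnoN, the close relative of SKI, which is degraded on TGF-beta signalling and whose gene is a known TGF-beta target. Its 2 probes are shown because both rose but by unequal amounts. They name the same 3 RefSeq transcripts but different Ensembl transcripts, and lie 4813 bases apart in the genome and 3956 bases apart in the transcript, so spliced-out sequence separates them. The first 30 of the 60 bases of each are given (mm9, plus strand), with no letter capitalised because no motif is marked.
Skil brighter probe, chr3:31021203-31021262: tgccaatgcatatagttttatgattaaaat
Skil dimmer probe, chr3:31016390-31016449: tgctcagaggatggaggaattctatattga

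The brighter Skil probe stood at 0.39, 0.40 and 0.44 in KO cells at 3 h, against 0.32, 0.22 and 0.36 in WT cells. At 0 h the values were -1.35, -1.42 and -1.71 in KO cells and -1.14, -1.25 and -1.19 in WT cells. All 3 h arrays were far above all 0 h arrays, and in KO cells the 21-week array at 3 h was the highest of its group. Skil rose by 1.90 ± 0.142 in KO cells, which is 3.73-fold (adjusted p = 0.00012), and by 1.49 ± 0.142 in WT cells, which is 2.81-fold (adjusted p = 0.000202). The KO change minus the WT change was 0.41, with a 95% interval of -0.04 to 0.86 (adjusted p = 1). The dimmer probe stood at -0.38, -0.11 and -1.36 in KO cells at 3 h, against -0.09, -0.27 and -0.17 in WT cells, and at -3.76, -3.43 and -3.29 in KO cells at 0 h, against -3.12, -3.38 and -3.28 in WT cells. It rose by 2.88 ± 0.287 in KO cells (adjusted p = 0.00045) and by 3.08 ± 0.287 in WT cells (adjusted p = 0.000182). The probes thus agreed in direction, and the difference between their changes was not tested.

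Tgif1 encodes a homeodomain protein that recruits corepressors to SMAD2 and SMAD3. It had the largest change of the 10 genes in both genotypes (chr17:71193629-71193688, minus strand, mm9). It stood at 3.74, 3.70 and 1.37 in KO cells at 3 h, against 3.72, 3.63 and 3.52 in WT cells. Its 0 h levels were 0.15, 0.05 and -0.85 in KO cells and 0.37, 0.49 and 0.37 in WT cells. The 10-week KO arrays and the WT arrays at 3 h were close together, while the 21-week KO array was 2.35 below the mean of the 10-week KO arrays and still above every 0 h array. Tgif1 rose by 3.15 ± 0.547 in KO cells, which is 8.88-fold (adjusted p = 0.0053), and by 3.21 ± 0.547 in WT cells, which is 9.27-fold (adjusted p = 0.00248). When the KO slide was fitted with its own spread the KO call was lost at the same difference (adjusted p = 0.114). Without the 21-week arrays the change was 3.62 ± 0.113 in KO cells and 3.21 ± 0.092 in WT cells. The KO change minus the WT change was -0.06, with a 95% interval of -1.78 to 1.66 (adjusted p = 1).

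Tgif1 has 5 promoter windows in the RefSeq table. The window shown (chr17:70851685-70851984, minus strand, GRCm38.p6) is the only one with CAGAC, the short SMAD motif, on both strands, and its matches are in capitals.
Tgif1 promoter: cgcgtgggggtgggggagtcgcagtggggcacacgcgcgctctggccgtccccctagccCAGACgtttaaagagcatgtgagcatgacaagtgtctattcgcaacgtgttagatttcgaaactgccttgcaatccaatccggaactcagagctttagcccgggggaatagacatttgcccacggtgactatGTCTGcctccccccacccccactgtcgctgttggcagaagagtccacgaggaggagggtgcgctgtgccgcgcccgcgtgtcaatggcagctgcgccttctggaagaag
CAGAC was found on either strand in 5 of the 11 windows of the members and in 49.6% of all windows, so the motif is common at this length. None of these 11 windows held TGANTCA (AP-1, 7.81% of all windows), TGACGTCA (CRE, 1.79%), GTCTAGAC (SMAD palindrome, 0.213%) or CACGTG (E-box, 7.15%). Members without a scanned window were not tested for these motifs.

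**Figure D2:**
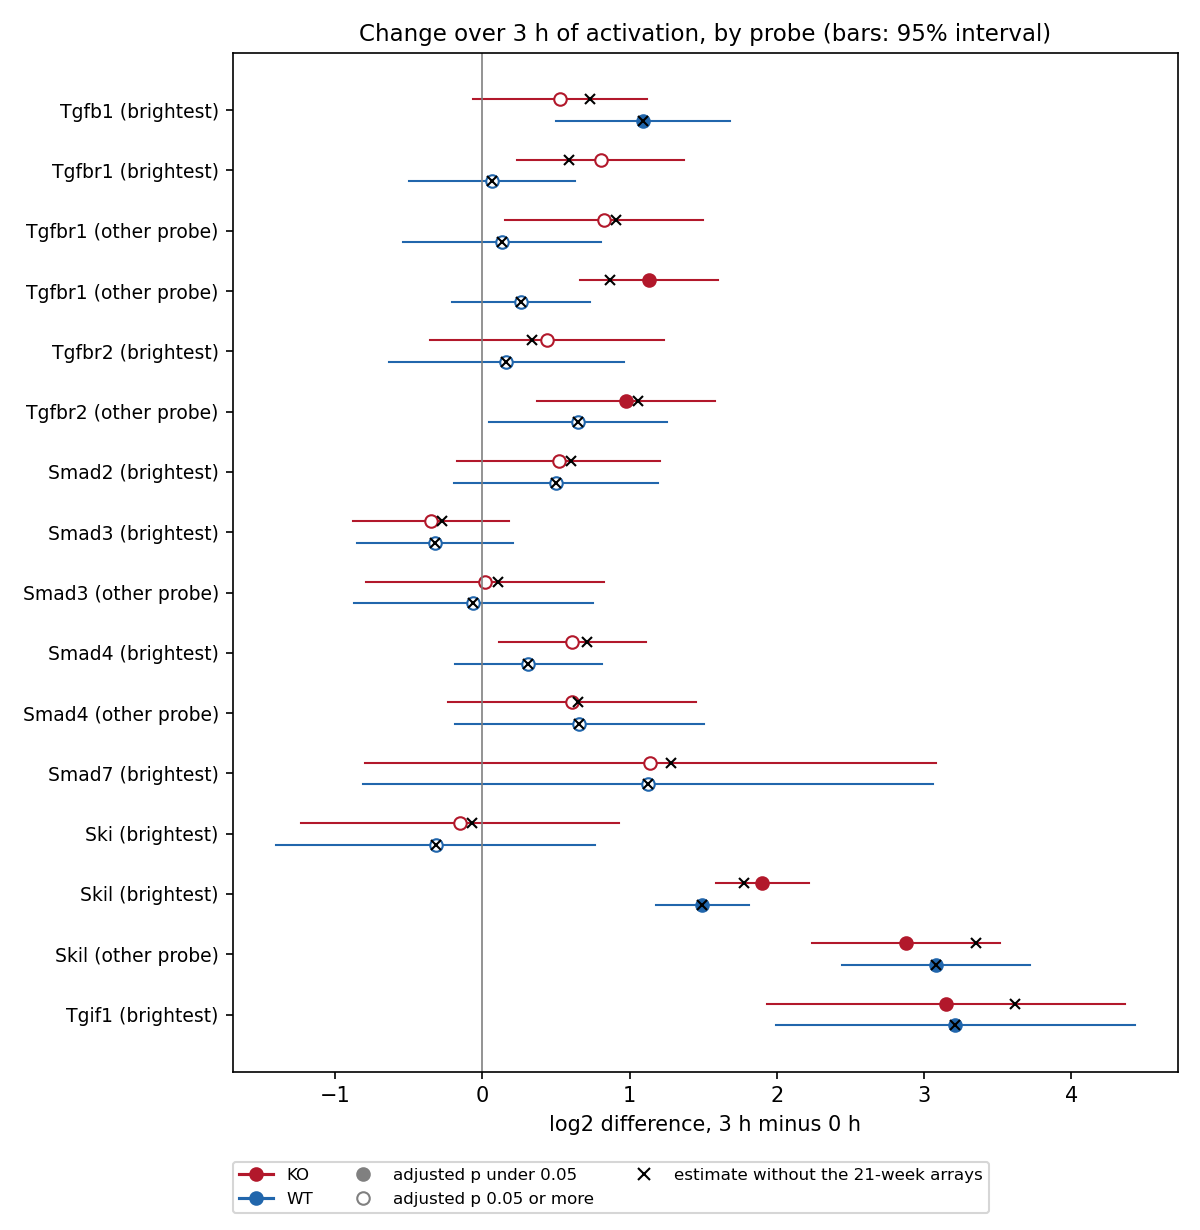
Log2 difference, 3 h minus 0 h, of the 16 tested probes, with KO above WT for each probe. Bars are 95% intervals, filled dots passed the threshold, and crosses are estimates without the arrays of the 21-week KO mice. The Skil and Tgif1 probes lie farthest to the right in both genotypes.

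The genes whose pattern over the 12 arrays was most like that of Tgif1 were found by the root mean square difference of centred log2 values. Among 18534 genes the closest was Nr4a1, a nuclear receptor induced within hours by T cell receptor signals, at 0.24. It was followed by Rrad, a small GTPase, and Ets2, a transcription factor, both at 0.26, by C2cd4a at 0.27 and by Slc5a3, a myo-inositol transporter, at 0.29. The median over all genes was 1.83. A gene with no variation would stand at 1.73, which is the spread of Tgif1 about its own mean. Nr4a1 averaged 1.37 in KO cells at 3 h, against 1.86 in WT cells, and -1.88 in KO cells at 0 h, against -1.35 in WT cells, in centred log2 units. Tgif1 averaged 1.25, 1.94, -1.90 and -1.28 in the same groups.

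Between the genotypes, no call was made among the 10 genes at either time. At 3 h 0 of 10 passed in limma, with 1 gene, Tgfb1, at an unadjusted p under 0.05, where 1.39% of all genes were called. At 0 h 0 of 10 passed, with 0 at an unadjusted p under 0.05, where 1.95% of all genes were called. All 10 differences were below 0 at 0 h, from -0.86 to -0.09, with a median of -0.42, against -0.03 over all genes, of which 47.4% were above 0. At 3 h they ran from -0.84 to 0.20 with a median of -0.35, against 0.04 over all genes. The arrays of both genotypes did not overlap for 3 genes at 3 h (19.2% of all genes) and for 5 at 0 h (31.6% of all genes).

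The largest statistic at 3 h belonged to Tgfb1, at -0.65 ± 0.266 (log2, KO minus WT), with a 95% interval of -1.24 to -0.06 before adjustment. Smad3 was at -0.50 ± 0.238 at 3 h and -0.47 ± 0.238 at 0 h, and Tgif1 at -0.69 ± 0.547 and -0.63 ± 0.547. Skil was at 0.11 ± 0.142 at 3 h and -0.30 ± 0.142 at 0 h. The Tgfbr1 probe that rose in KO cells was at 0.14 ± 0.211 at 3 h and at -0.73 ± 0.211 at 0 h, where its KO arrays lay wholly below the WT arrays. Its unadjusted p in limma at 0 h was 0.00605 (adjusted p = 0.1375), though it does not stand for the gene in the counts above. Smad7 had the widest interval, -2.78 to 1.10 at 3 h and -2.80 to 1.08 at 0 h. These intervals leave room for differences of either sign in most of the genes.

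The array of the 21-week mouse was the lowest of the 3 KO arrays for 9 of the 10 genes at 3 h, which held for 43.3% of all genes, and for 10 of 10 at 0 h, which held for 45.9%. For Smad7 it lay 3.08 below the mean of the 10-week KO arrays at 3 h and 2.67 below at 0 h, and for Ski 1.68 and 1.45 below. Without these 2 arrays the median difference between KO and WT was 0.10 at 3 h and -0.20 at 0 h, 7 genes were above 0 at 3 h and 3 at 0 h, and again 0 of 10 passed at either time. Tgfb1 was then 0.04 at 0 h and Smad7 0.19 at 3 h and 0.03 at 0 h.

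**Figure D3:**
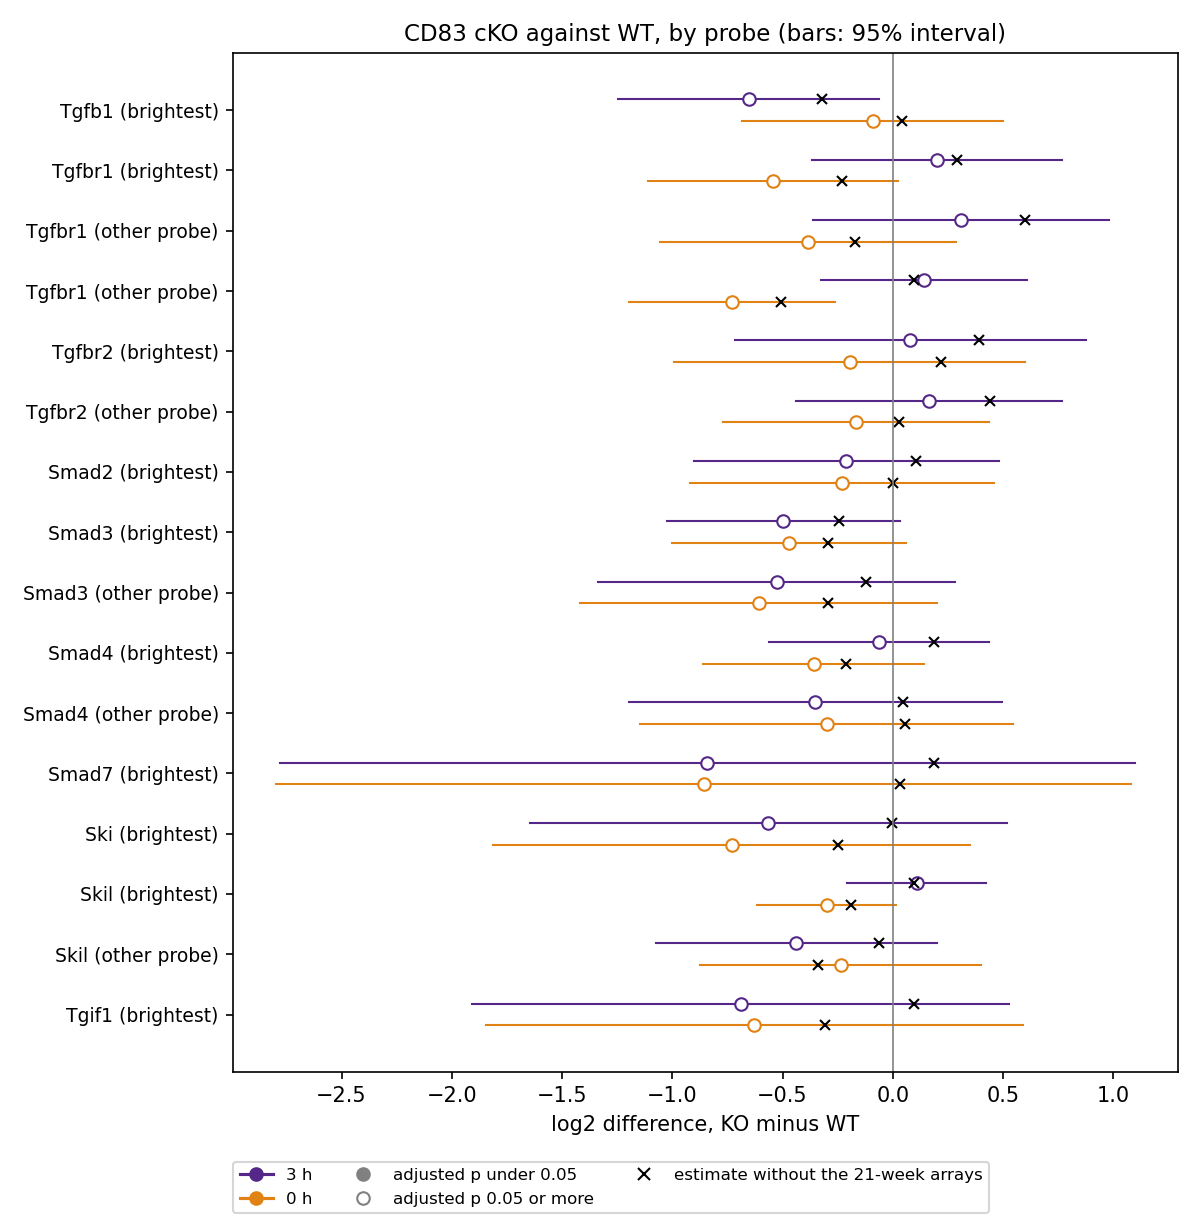
Log2 difference, KO minus WT, of the 16 tested probes, with 3 h above 0 h. Bars are 95% intervals, open dots missed the threshold, and crosses are estimates without the arrays of the 21-week KO mice, most of which lie nearer 0 or to its right.

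Without the arrays of the 21-week mice, the spread shrank and more of the genes passed for the change over 3 h. In KO cells 6 of 10 rose, namely Tgif1, Skil, Smad7, Tgfb1, Smad4 and Tgfbr1, where 45.3% of all genes were called and 19.8% rose. In WT cells 6 rose and 2, Ski and Smad3, fell, where 55.2% of all genes were called, 23.9% as rising and 31.3% as falling. Smad4 was higher by 0.71 ± 0.119 in KO cells (adjusted p = 0.00206) and by 0.31 ± 0.097 in WT cells (adjusted p = 0.0251). Tgfbr1 was higher by 0.59 ± 0.163 in KO cells (adjusted p = 0.0198). Smad2 was higher by 0.50 ± 0.185 in WT cells (adjusted p = 0.049). In WT cells Ski was at -0.32 ± 0.117 (adjusted p = 0.0481) and Smad3 at -0.32 ± 0.111 (adjusted p = 0.0366).

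The age label also allowed a fit of all 12 arrays with a term for the 21-week arrays, equal at both times, a setting chosen after seeing the data. The differences over 3 h stay the same by construction, and their error then leaves out the gap between ages. In KO cells 7 of 10 genes rose and Smad3 fell, where 37.7% of all genes were called. Beside Tgif1 and Skil these were Tgfb1 (adjusted p = 0.0225), Tgfbr1 (0.00572), Tgfbr2 (0.0345), Smad4 (0.00366) and Smad7 (0.00104), with an adjusted p of 0.0493 for Smad3. In WT cells 6 rose and none fell, where 49.5% of all genes were called. Smad2 (adjusted p = 0.0488), Smad4 (0.0496) and Smad7 (0.000616) were added to Tgfb1, Skil and Tgif1. Between the genotypes 0 of 10 passed at either time in that fit.

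The change over 3 h was not shown to differ between the genotypes for any of the 10 genes. For the KO change minus the WT change, limma called 0 of 10 genes and 0 of all 18544, with 0 of the 10 and 665 of all genes at an unadjusted p under 0.05. The median of the 10 was 0.09, against 0.06 over all genes, and the values ran from -0.56 for Tgfb1 to 0.74 for Tgfbr1.

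The wider pathway was followed in 5 lists, to be read against the shares over all genes, of which 7.1% rose and 9.55% fell in KO cells over 3 h, and 13.1% rose and 16.4% fell in WT cells. Of 14 tested genes for other ligands and for latency and activation, 3 rose and 1 fell in KO cells, where 16.6% of all genes were called, and 3 rose and 2 fell in WT cells, where 29.4% were. Itgav, the alpha-v integrin chain of the integrins that release latent TGF-beta, stood at -1.18, -1.34 and -2.70 in KO cells at 3 h, against -3.60, -4.04 and -5.02 at 0 h. In WT cells it stood at -0.73, -1.23 and -0.94 at 3 h, against -3.93, -3.77 and -4.20 at 0 h. It rose by 2.48 ± 0.437 in KO cells (adjusted p = 0.00563) and 3.00 ± 0.437 in WT cells (adjusted p = 0.00111), with no overlap of the times in either genotype. Furin, the protease that cleaves the TGF-beta precursor, rose by 1.09 in KO cells and 0.71 in WT cells. Fst, which encodes the activin antagonist follistatin, was not well above background on any 0 h array, and was at least 3.91-fold higher at 3 h in KO cells (adjusted p = 0.00342) and at least 1.85-fold higher in WT cells (adjusted p = 0.00295). Nrros, a protein that tethers latent TGF-beta on myeloid cells, fell by 1.23 in KO cells and 1.46 in WT cells on the log2 scale. The macrophage markers moved the same way over 3 h, with 7 of 10 called as falling in KO cells and 8 of 10 in WT cells, and their part in the Nrros values was not tested.

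Of 11 other receptors of the superfamily, 1 rose and 2 fell in KO cells (16.6% of all genes called), and 3 rose and 1 fell in WT cells (29.4% of all genes called). Acvr2a, an activin receptor, rose by 1.18 in KO cells and 1.40 in WT cells, and Acvrl1, the receptor ALK1 of endothelial BMP9 signalling, fell by 0.96 in KO cells and 1.21 in WT cells on the log2 scale. Acvr1, a BMP type I receptor, changed by 0.69 in KO cells (adjusted p = 0.0715) and rose by 1.63 in WT cells (adjusted p = 0.00108). Acvr1 rose in both genotypes without the 21-week arrays, by 0.95 in KO cells (adjusted p = 0.00339) and 1.63 in WT cells (adjusted p = 4.99e-05), and was higher by 0.85 in KO cells at 0 h (adjusted p = 0.0274). Tgfbr3, the coreceptor betaglycan, fell by 1.44 on the log2 scale in KO cells (adjusted p = 0.0158) and differed by -0.89 in WT cells (adjusted p = 0.0664). Tgfbr3 fell in both genotypes without the 21-week arrays, at -0.84 in KO cells (adjusted p = 0.0018) and -0.89 in WT cells (adjusted p = 0.000301). Acvrl1 was also the receptor called between genotypes at 3 h, at -2.71, -2.56 and -2.16 in KO cells, against -3.55, -3.44 and -3.56 in WT cells, with no overlap. It was higher by 1.04 ± 0.201 in KO cells (adjusted p = 0.0368), and without the 21-week arrays by 0.89 at 3 h (adjusted p = 0.0596) and 0.83 at 0 h (adjusted p = 0.041). Another receptor of the list, not named here, passed between genotypes at both times in that setting.

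Of 13 other SMADs and SMAD regulators, 1 rose in KO cells (16.6% of all genes called) and 3 rose in WT cells (29.4% of all genes called), and none of the 13 fell. Pmepa1, a TGF-beta-induced membrane protein that sequesters SMADs, stood at -0.72, -0.58 and -0.72 in KO cells at 3 h, against -2.07, -2.05 and -4.29 at 0 h. It rose by 2.13 ± 0.500 in KO cells (adjusted p = 0.0184) and differed by 1.08 ± 0.500 in WT cells (adjusted p = 0.131). Pmepa1 rose in both genotypes without the 21-week arrays, by 1.41 in KO cells (adjusted p = 0.00102) and 1.08 in WT cells (adjusted p = 0.000887). Smurf2, a ubiquitin ligase that targets the receptor with SMAD7, rose by 1.12 in WT cells and differed by 0.82 in KO cells. Ppm1a, a phosphatase of SMAD2 and SMAD3, rose by 0.93 and Usp15, a deubiquitinase of the receptor, by 0.58 in WT cells, against uncalled differences of 0.65 and 0.20 in KO cells. Without the 21-week arrays Smurf2 rose by 0.86 (adjusted p = 0.000849) and Usp15 by 0.39 (adjusted p = 0.0182) in KO cells too, while Ppm1a did not pass there (adjusted p = 0.0915). The difference between the genotypes' changes was not called for any of these 4 (adjusted p = 1).

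Of 12 other SMAD corepressors and coactivators, none passed over 3 h in KO cells (16.6% of all genes called) and 1, Tgif2, rose in WT cells (29.4% of all genes called). Tgif2, the paralog of Tgif1, stood at -1.83, -1.43 and -3.92 in KO cells at 3 h, against -3.82, -3.86 and -5.25 at 0 h. In WT cells it stood at -1.27, -2.01 and -2.05 at 3 h, against -4.30, -4.01 and -3.83 at 0 h. The times overlapped in KO cells through the 21-week array, which at 3 h lay below the KO arrays of the 10-week mice at 0 h, and not in WT cells. The change was 1.92 ± 0.608 in KO cells (adjusted p = 0.0571) and 2.27 ± 0.608 in WT cells (adjusted p = 0.0193). Tgif2 rose in both genotypes without the 21-week arrays, by 2.22 in KO cells (adjusted p = 0.000596) and 2.27 in WT cells (adjusted p = 0.000107). Ctbp2, a corepressor that TGIF1 recruits, was higher in KO cells at 0 h by 2.68 ± 0.464 (adjusted p = 0.0201), at -4.36, -4.58 and -3.06 in KO cells against -6.78, -6.35 and -6.92 in WT cells. Without the 21-week arrays Ctbp2 rose over 3 h by 1.13 in WT cells (adjusted p = 0.00775) and differed by 0.055 in KO cells (adjusted p = 0.903). The KO change minus the WT change was -1.07 in that setting and was not called (adjusted p = 0.502). Ctbp2 was also higher in KO cells at 0 h there, by 2.21 (adjusted p = 0.00983).

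Of 13 genes known to respond to TGF-beta, 3 rose and 1 fell in KO cells over 3 h (16.6% of all genes called), and 6 rose and 2 fell in WT cells (29.4% of all genes called). Cdkn1a, which encodes the cell cycle inhibitor p21, stood at -0.65, -0.45 and -0.08 in KO cells at 3 h, against -5.62, -5.79 and -4.03 at 0 h. In WT cells it stood at 0.05, -0.14 and 0.32 at 3 h, against -5.26, -5.91 and -5.70 at 0 h. It rose by 4.75 ± 0.412 in KO cells (adjusted p = 0.000252) and 5.70 ± 0.412 in WT cells (adjusted p = 7.06e-05). Tgfbi, a secreted matrix protein, fell by 1.99 in KO cells and 2.71 in WT cells on the log2 scale. Tgfbi was the gene of the list called between genotypes at 3 h, at -2.27, -2.29 and -0.41 in KO cells against -4.29, -4.30 and -4.34 in WT cells, a difference of 2.66 ± 0.445 (adjusted p = 0.0178). At 0 h Tsc22d1, a leucine zipper protein, was higher by 1.33 ± 0.212 in KO cells (adjusted p = 0.0135). The macrophage markers stood higher in KO cells at both times, with 8 of 10 called at 3 h and 9 of 10 at 0 h, and their part in these values was not tested.

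**Figure D4:**
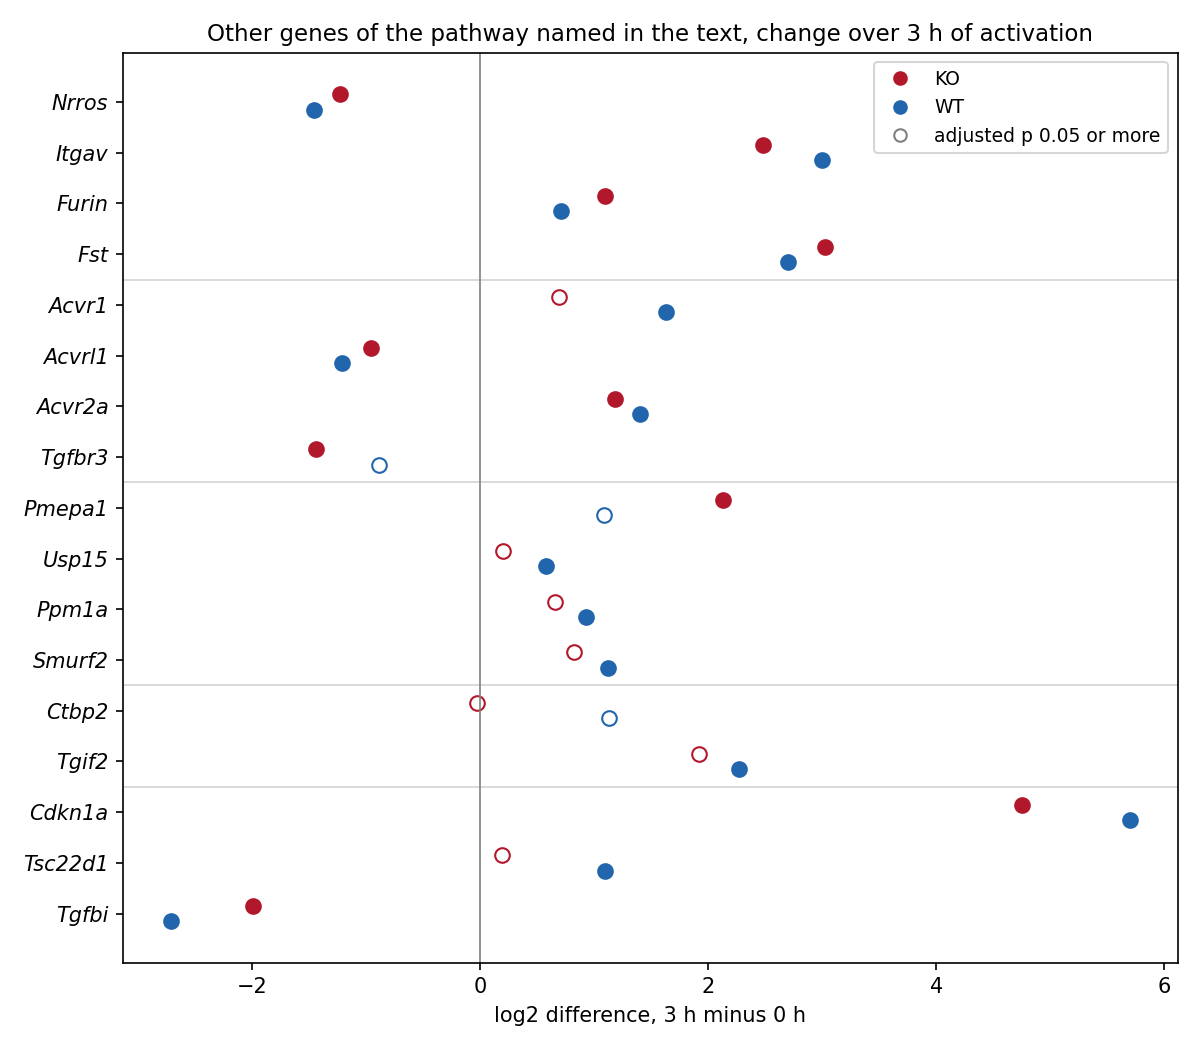
Log2 difference, 3 h minus 0 h, of the other pathway genes named in the text, with KO above WT for each gene and open dots where the adjusted p was 0.05 or more. Cdkn1a lies farthest to the right, and Tgfbi, Nrros, Acvrl1 and Tgfbr3 lie left of 0, in both genotypes.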

How the data were processed

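The microarrays were scanned and their intensity values deposited by the authors as Agilent Feature Extraction output (version 10.7.3.1 per the file headers, 11 per the submitters' processing notes, which also name Partek). Per the labels' protocols, 20 ng of RNA was amplified for a 0 h sample numbered 1 and 40 ng for all others. The log2 values the authors deposited in a second table were used as an alternative. Here the processed signal was put on the log2 scale, spots of a probe were averaged, and each array's 75th percentile was subtracted, taken over the 19798 probes that every array measured well above background. Of 55681 probes, 26259 were tested, namely those with such a signal in all replicates of some group. Differences came from limma 3.58.1 (R 4.3.3), in 1 model of 4 group means with 8 residual degrees of freedom, and p-values were adjusted by Benjamini-Hochberg over all tested probes, with a threshold of 0.05. A fit with age as a term had 7 residual degrees of freedom. The fit was tested on simulated data. Probe positions are on mm9 from the array files, and promoter windows on GRCm38.p6 from RefSeq. The number of arrays limits the precision. The members and the lists were chosen with earlier results of these data known. Named genes were all members, up to 4 called genes per list by the size of the moderated statistic, and the 5 genes most like the member with the largest called rise in WT cells. A result on 1 listed gene, which stays in its list's counts, is not reported here.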

Additional observations from a re-analysis of the deposited data

How the results depend on the processing

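The 10 genes' differences were recomputed with other normalizations, background corrections, filters, probe summaries and sets of arrays. Of 950 recomputed values, 841 kept direction and side of the threshold, 35 newly passed, 4 no longer passed and 70 changed sign, none of these 70 past the threshold before or after.

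Calls for the change over 3 h in KO cells numbered 2, against 4 with normexp, 1 with the KO slide fitted alone, which is also the fit of only the arrays compared (Tgif1 was lost), 6 without the 21-week arrays and 8 with age as a term, chosen after seeing the data. Settings with 3 calls were quantile normalization, the percentile over all probes, only probes above background on all 12 arrays and probes averaged, and Tgfbr1 passed under each of these 4. Leaving out each array gave 2 to 7, with 7 reached without KO replicate 3 at 3 h. In WT cells 3 calls became 7 with only the arrays compared and 6 with age as a term. They became 8 without the 21-week arrays, a setting chosen after seeing the data for WT, and 2 to 3 on leaving out each array. Smad7 passed in WT cells under 4 of its 11 alternative settings, which is more than the settings named here, and Tgfb1 was lost with no shift between arrays. Between genotypes, and for the difference of changes, 0 genes passed under every setting run.

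Without the 21-week arrays, KO minus WT at 3 h changed sign for Smad2 (0.10), Smad4 (0.19), Smad7 (0.19) and Tgif1 (0.10), and at 0 h for Tgfb1 (0.042), Tgfbr2 (0.22) and Smad7 (0.032). The KO change minus the WT change did so for Smad3 (0.048) and Tgif1 (0.40). With age as a term, KO minus WT was 0.061 for Smad2, 0.14 for Smad4 and 0.12 for Smad7 at 3 h, and 0.14 for Tgfb1, 0.17 for Tgfbr2, 0.042 for Smad2 and 0.10 for Smad7 at 0 h. With no shift between arrays, KO minus WT at 3 h was -0.20 for Tgfbr1, -0.32 for Tgfbr2 and -0.29 for Skil, and the difference of changes was -0.11 for Tgfbr2, -0.36 for Smad2, -0.084 for Smad4, -0.36 for Smad7 and -0.22 for Ski. With the percentile over all probes, KO minus WT at 3 h was -0.12 for Tgfbr2 and -0.087 for Skil. With normexp, Ski was 0.12 for KO minus WT at 3 h and 0.14 for the KO change, and Smad3 0.011 for the difference of changes. That difference was -0.0065 for Ski and -0.057 for Smad7 in the deposited table, -0.034 for Smad7 after quantile normalization and 0.027 for Smad3 with probes averaged, where Skil was -0.16 for KO minus WT at 3 h.

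Leaving out each array in turn, KO minus WT at 0 h ran from -0.18 to 0.042 for Tgfb1, -0.47 to 0.22 for Tgfbr2 and -1.41 to 0.032 for Smad7. At 3 h it ran from -0.12 to 0.39 for Tgfbr2, -0.45 to 0.10 for Smad2, -0.26 to 0.19 for Smad4, -1.42 to 0.19 for Smad7 and -1.09 to 0.10 for Tgif1. The Ski change in KO cells ran from -0.63 to 0.41. The difference of changes ran from -0.14 to 0.59 for Tgfbr2, -0.22 to 0.33 for Smad2, -0.20 to 0.23 for Smad3, -0.87 to 1.04 for Smad7, -0.32 to 0.73 for Ski and -0.46 to 0.72 for Tgif1. The cause of these changes was not tested.

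The scaling moved the median of all genes. For KO minus WT at 3 h it was 0.04, against -0.36 with no shift, and for the change in KO cells -0.04, against -0.34, while the 10 genes' medians moved by like amounts, to -0.76 and 0.27. Rises made up 89% of genotype calls at 0 h, against 76.2% with the percentile over all probes, and 42.6% of calls in KO cells over 3 h, against 11.1% with no shift. No paired analysis was possible because the replicate numbers follow accession order and no label gives the mouse of an array, and age, the label that KO arrays of both times share, was fitted as a term instead. Signal over background limits Smad7, Ski, the dimmer Smad3 probe and the dimmest tested Tgfbr1 probe, each of which 10 of 12 arrays measured.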
